A study of Mus musculus with 4 samples.

Results

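The guanylate-binding proteins (GBPs) and the immunity-related GTPases (IRGs) are GTPases that cells make in quantity after exposure to interferon, above all interferon gamma. They assemble on the membranes of vacuoles that hold parasites or bacteria, and several GBPs help to start inflammasome signalling. Among the IRGs, the Irgm proteins (Irgm1, Irgm2 and Igtp, which is also called Irgm3) act as regulators that keep the effector IRGs inactive on the cell's own membranes, and Iigp1 and Ifi47 belong to the effectors. Natural killer (NK) cells both secrete interferon gamma and carry its receptor.

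Transcripts of 9 of these genes (Gbp2, Gbp3, Gbp6, Gbp10, Iigp1, Irgm1, Irgm2, Igtp and Ifi47) were followed among 37310 genes measured by RNA sequencing. Rows were chosen by gene symbol and, where a symbol had several rows, by the highest total count over the libraries. Each of the 9 symbols had 1 row, so the counts decided nothing. The 9 genes themselves were proposed with results of these libraries known, so the number of them that changed is not independent evidence.

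NK cells (CD3e-NK1.1+CD49b+) were sorted by flow cytometry from the bone marrow of C57BL/6 mice of 6 to 8 weeks, and Smart-seq2 libraries were made from their total RNA. The 4 libraries are 2 biological replicates each of littermate controls (Ctrl) and of mice labelled Gabpb1l-/-Gabpb2-/- (dKO), which are described as lacking the tetramer of GABP, an Ets-family transcription factor. Gabpb1l is a long form of Gabpb1, and Gabpb1 and Gabpb2 encode the beta subunits that join with the DNA-binding subunit Gabpa. The labels name no Cre driver, and do not say whether a library came from 1 mouse or from several. The counts assigned to genes ranged from 30233870 to 34724516 per library. Gabpb2 had 1244 and 1009 counts in Ctrl and 85 and 86 in dKO. Gabpb1, whose gene-level count does not separate the long form, had 1945 and 1727 counts in Ctrl and 2609 and 2400 in dKO, and Gabpa had 2779 and 2683 in Ctrl and 3263 and 2973 in dKO. The groups also differ in sex-linked transcripts: Xist had 6066 and 6430 counts in Ctrl and 2 and 9 in dKO, and Ddx3y had 0 in both Ctrl libraries and 8933 and 6757 in dKO. Effects of genotype and of the sex these transcripts mark cannot be told apart in any comparison below.

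Promoter entries from the RefSeq table (GRCm38.p6) were searched for 6 of the 9 genes. No entry was searched for Gbp6, Gbp10 and Iigp1, the genes that fell in dKO as described below. This does not show that RefSeq holds none for them, and their promoters were not tested. Each entry runs from 250 bases before to 50 bases after a start, and was searched on both strands for the core of the interferon-stimulated response element (ISRE), which is GAAA, 2 bases of any kind and GAAA again, for TTCNNNGAA, the gamma-activated sequence (GAS) of interferon gamma target genes, and for CCGGAAG, an Ets core of the kind GABP binds. The ISRE core stood in an entry of 5 of the 6 genes (Gbp2, Gbp3, Irgm1, Irgm2 and Igtp), against 3.44% of 32851 promoter entries of all genes. Gbp3 has a further entry, which lacks it. The shares over all promoters count entries and not genes. The GAS stood in 2 (Igtp and Irgm2), against 8.30% of all entries. None of the 6 held the Ets core, which 8.86% of all entries held. The entries of Igtp and Irgm2 are shown because these genes, which overlap in GENCODE M21, carry both elements in the same order with the same spacing, and that of Ifi47, the most abundant of the 9 transcripts, because its 1 entry holds neither. Each stretch is the 150 bases before the RefSeq start, 5′ to 3′ on the gene's strand, with GAS and ISRE core letters in capitals. The coordinates on the plus strand are chr11:58199406-58199555 for Igtp, chr11:58214827-58214976 for Irgm2 and chr11:49076437-49076586 for Ifi47. The RefSeq start of Irgm2 lies inside the longer span that GENCODE M21 gives the gene. The Ifi47 entry is that of the transcript starting at chr11:49076587, while the other 2 transcripts of its row start downstream in GENCODE M21, at 49086700 and 49087039, and the sequence before those starts was not searched.
Igtp: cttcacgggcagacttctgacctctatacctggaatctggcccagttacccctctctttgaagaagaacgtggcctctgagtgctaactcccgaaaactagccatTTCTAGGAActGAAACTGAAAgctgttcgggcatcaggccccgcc
Irgm2: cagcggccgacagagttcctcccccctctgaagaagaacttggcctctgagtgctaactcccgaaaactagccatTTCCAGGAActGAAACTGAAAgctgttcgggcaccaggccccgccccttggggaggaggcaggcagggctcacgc
Ifi47: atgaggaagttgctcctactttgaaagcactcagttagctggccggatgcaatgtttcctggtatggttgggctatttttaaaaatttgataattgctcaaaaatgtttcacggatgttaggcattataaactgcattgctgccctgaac
The GAS begins 45 bases before the start of Igtp and 75 bases before that of Irgm2. The ISRE core begins 34 and 64 bases before it. This arrangement is not particular to the pair. In the relatives Tgtp1 and Tgtp2 the order and spacing are the same. There the GAS begins 88 and 81 bases before the start, and the ISRE core 77 and 70. The entries of Gbp5, Gbp7 and Gm12250 also hold both elements. A match is a run of letters and not a measured binding site.

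Of the 9 genes, 3 fell in dKO (Gbp6, Gbp10 and Iigp1), none rose and 6 did not pass, at an adjusted p under 0.05 in edgeR's quasi-likelihood test over 13904 genes. The rows labelled Gbp6 and Gbp10 overlap, as described below, so their calls are not independent. The share of all tested genes called lower was 0.295%, the share called higher was 0.316%, and the share called in either direction was 0.611%. All 9 had a negative log2 fold change (dKO minus Ctrl), as 48.4% of all tested genes did, with a median of -0.47 against 0.01 over all tested genes. In 8 of the 9 both dKO libraries lay under both Ctrl libraries, which held for 19.9% of tested genes (the reverse order held for 21.7%). Levels below are counts scaled to library size (CPM), with the SD over n = 2 libraries. In a sorted population, fewer cells that make a transcript and less transcript per cell cannot be told apart.

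Among marker genes of the sorted cells and of others, those of NK cells summed to 8240 and 8310 CPM in Ctrl against 7390 and 7180 CPM in dKO, and none of the 6 passed. T cell markers moved with the GTPase genes, although the sort took CD3e- cells: their sum was 193 and 207 CPM in Ctrl against 45.5 and 72.1 CPM in dKO, and 2 of 6 (Cd3e and Trac) fell. Monocyte or macrophage markers summed to 3290 and 3580 CPM in Ctrl against 3670 and 4210 CPM in dKO. Plasmacytoid dendritic markers, which include the interferon-inducible genes Bst2 and Irf7, summed to 190 and 214 CPM in Ctrl against 156 and 172 CPM in dKO. Conventional dendritic markers summed to 314 and 324 CPM in Ctrl against 246 and 312 CPM in dKO, and neutrophil markers to 658 and 379 CPM in Ctrl against 218 and 379 CPM in dKO. Elane and Mpo, of the neutrophil list, had log2 fold changes of -1.985 and -1.972 (adjusted p from edgeR = 0.112 and 0.155). Their dKO libraries lay under their Ctrl libraries, while the groups of S100a8, S100a9, Ly6g and Camp overlapped. The sums of B cell and of erythroid markers overlapped between the groups. Outside the T cell list no marker was called (edgeR), and no marker on any list was at 0 in all 4 libraries. The part of other cells in the GTPase differences was not tested.

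The rows labelled Gbp6 and Gbp10 are not separate measurements of these genes. GENCODE M21 (GRCm38), a later annotation than that of the files, was read by transcript identifier. Of the transcripts in the Gbp6 row, 1 now belongs to Gm43302 (chr5:105214907-105293695), whose span covers both the M21 gene Gbp10 (chr5:105215699-105239533) and most of the M21 gene Gbp6 (chr5:105270702-105293698), and the other now belongs to Gbp11 (chr5:105323042-105346472). In the Gbp10 row, 1 transcript is still Gbp10 and the other now lies in Gbp9 (chr5:105079298-105139539). The transcripts of the 2 rows share 1792 exon bases, 25.6% of those in the Gbp6 row and 28.8% of those in the Gbp10 row. Every 100-base window of the transcripts was also compared letter for letter with the other rows: 83.4% of the windows of the Gbp10 row occurred in another row (43.1% in that of Gbp9, 40.0% in that of Gbp6), and 53.9% of those of the Gbp6 row did. For Gbp2, Iigp1 and Irgm1 the share was 0%, for Gbp3 0.720%, for Ifi47 0.618%, and for Igtp and Irgm2, which share 162 exon bases, it was 5.11% and 3.10%.

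Among the GBPs, the row labelled Gbp6 was at 162.6 and 185.6 CPM in the Ctrl libraries and at 60.0 and 65.7 CPM in the dKO libraries. The groups stand far apart and the libraries within each are close. It fell from 174 ± 16.3 to 62.8 ± 4.07 CPM, by 1.47 on the log2 scale with an SE of 0.17 (adjusted p from edgeR = 0.0111), which is 2.77-fold. The row labelled Gbp10, a close relative in the same gene cluster, was at 34.4 and 45.9 CPM in Ctrl against 11.3 and 13.7 CPM in dKO. Its highest dKO library lay well under its lowest Ctrl library. It fell from 40.2 ± 8.13 to 12.5 ± 1.72 CPM, by 1.68 on the log2 scale with an SE of 0.24 (adjusted p from edgeR = 0.0287), which is 3.21-fold. Without dKO replicate 1 the call for Gbp10 was lost (adjusted p = 0.0677), and its adjusted p over the alternatives ran from 1.81e-08 to that value.

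Gbp2, which carries a lipid anchor and reaches pathogen vacuoles early, was at 139 and 171 CPM in Ctrl against 142 and 147 CPM in dKO, so the groups overlapped (log2 fold change of -0.11 with SE 0.17, adjusted p from edgeR = 0.895). Its sign turned without Ctrl replicate 2 (log2 fold change 0.05). Gbp3 was at 134 and 116 CPM in Ctrl against 87.4 and 108 CPM in dKO. Its groups did not overlap but nearly touched (log2 fold change of -0.35 with SE 0.18, adjusted p from edgeR = 0.561). Its log2 fold change was -0.21 without dKO replicate 1 and -0.52 without dKO replicate 2. The Gbp6 to Gbp2 ratio within a library does not depend on scaling. On the log2 scale this ratio of counts was 0.22 and 0.12 in Ctrl and -1.24 and -1.16 in dKO. This pair was picked with the values known, and the difference was not tested.

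**Figure D1:**
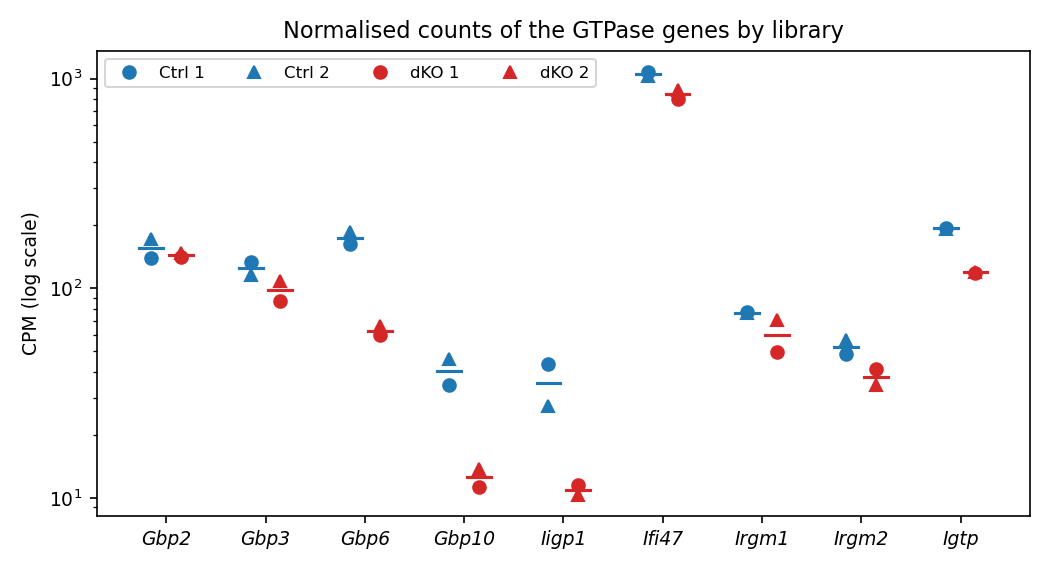
Level of each of the 9 genes in CPM (vertical axis, log scale) in the 4 libraries; blue is Ctrl, red is dKO, circles are replicate 1, triangles are replicate 2, and a bar marks the mean of 2 libraries. Gbp6, Gbp10 and Iigp1 show wide gaps between the colours, while the Gbp2 points overlap (139 and 171 CPM in Ctrl, 142 and 147 CPM in dKO).

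Among the effector IRGs, Iigp1, which coats and disrupts the vacuoles of Toxoplasma, was at 43.4 and 27.4 CPM in the Ctrl libraries and at 11.5 and 10.4 CPM in the dKO libraries. The Ctrl libraries were uneven, and both exceeded both dKO libraries. Iigp1 fell from 35.4 ± 11.4 to 10.9 ± 0.795 CPM, by 1.70 on the log2 scale with an SE of 0.28 (adjusted p from edgeR = 0.0465), which is 3.24-fold and close to the threshold. The call was lost without Ctrl replicate 1 (adjusted p = 0.101), without dKO replicate 1 (0.0652), without dKO replicate 2 (0.108) and with limma-voom (0.0511), and its adjusted p ranged from 5.75e-08 to 0.108 over all alternatives. Ifi47 was at 1078 and 1032 CPM in Ctrl against 803.5 and 886.9 CPM in dKO. Its dKO libraries were the lower, by a small margin (log2 fold change of -0.32 with SE 0.14, adjusted p from edgeR = 0.505). The log2 ratio of Iigp1 to Ifi47 counts was -4.63 and -5.24 in Ctrl and -6.13 and -6.42 in dKO, a comparison also picked with the values known and not tested.

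None of the 3 regulatory IRGs passed. Igtp, which sits on the endoplasmic reticulum and lipid droplets, had closely matched replicates, at 193.5 and 192.4 CPM in Ctrl against 117.9 and 119.8 CPM in dKO (log2 fold change of -0.70 with SE 0.15, adjusted p from edgeR = 0.111). DESeq2 called it (adjusted p = 0.00871), as did edgeR without a count filter (0.00859), and its adjusted p over all alternatives reached 0.339. In those settings 1.58% and 1.30% of tested genes were called lower. Irgm2, a Golgi-associated regulator whose loss heightens responses to bacterial endotoxin, was at 48.7 and 56.4 CPM in Ctrl against 41.3 and 34.4 CPM in dKO (log2 fold change of -0.47 with SE 0.20, adjusted p from edgeR = 0.451). Irgm1, which is needed for resistance to mycobacteria and for normal lysosome and autophagy function, was at 76.7 and 76.1 CPM in Ctrl against 49.7 and 70.3 CPM in dKO (log2 fold change of -0.35 with SE 0.21, adjusted p from edgeR = 0.635). The dKO libraries of Irgm1 were the uneven ones, and its log2 fold change was -0.12 without dKO replicate 1 and -0.62 without dKO replicate 2. The Igtp to Irgm2 ratio, from the neighbours whose upstream stretches are printed above, was 1.99 and 1.77 on the log2 scale in Ctrl and 1.51 and 1.80 in dKO, so the groups overlapped.

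**Figure D2:**
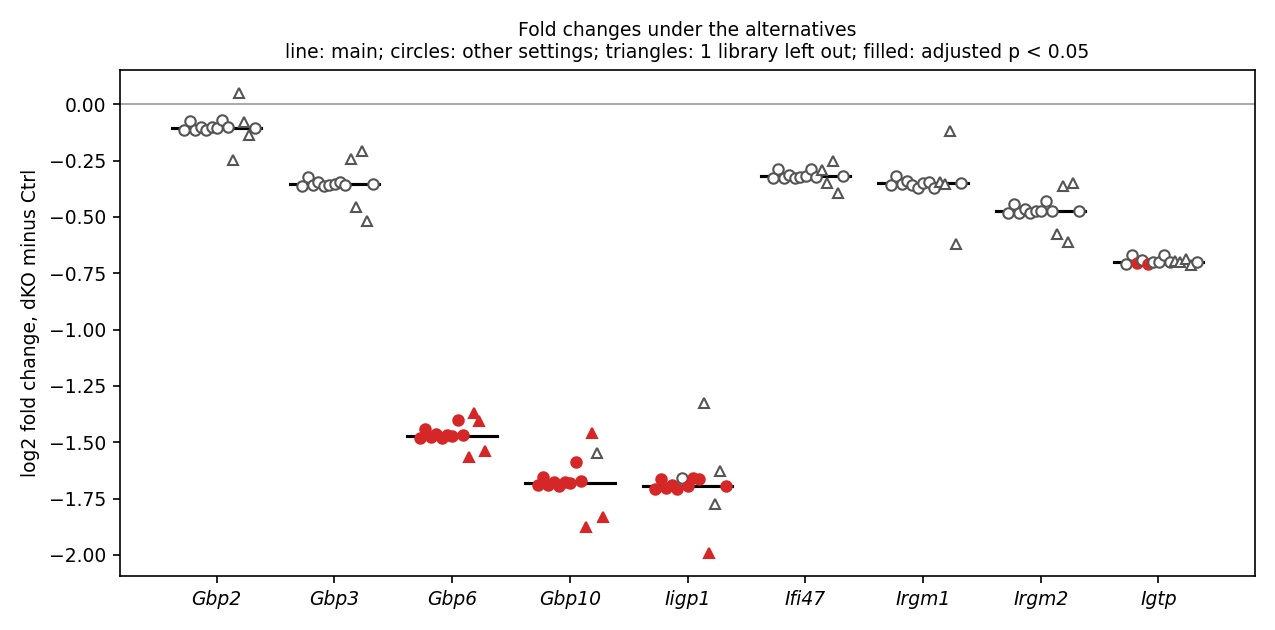
Log2 fold change (dKO minus Ctrl, vertical axis) of each gene under each processing alternative: black line, main value; circles, other settings; triangles, 1 library left out; filled red, adjusted p under 0.05. Gbp6 stays between -1.57 and -1.37 and filled throughout, while Iigp1 ranges from -1.99 to -1.33 with 4 open symbols.

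Per length, the order of the transcripts was led by Ifi47 in both groups. Its level was 1158 ± 15.9 TPM (the abundance per transcript length that RSEM gives, SD, n = 2) in Ctrl and 945 ± 24.2 TPM in dKO. Igtp followed at 166 ± 5.79 TPM in Ctrl and 104 ± 8.39 TPM in dKO, where it did not stand apart from Gbp2 (106 ± 20.1 TPM in Ctrl and 100.1 ± 6.46 TPM in dKO). In Ctrl, Gbp6 (87.1 ± 9.33 TPM), Gbp3 (79.3 ± 3.95 TPM) and Irgm1 (75.9 ± 5.13 TPM) had overlapping spreads. In dKO, Gbp3 (61.7 ± 5.02 TPM) and Irgm1 (60.0 ± 8.17 TPM) ranked above Gbp6 (32.6 ± 0.0141 TPM). The lowest in Ctrl were Irgm2 (24.4 ± 3.30 TPM), Gbp10 (24.3 ± 5.37 TPM) and Iigp1 (19.4 ± 5.49 TPM), which did not differ beyond their spread. In dKO, Irgm2 was at 18.2 ± 4.05 TPM, Gbp10 at 8.01 ± 0.403 TPM and Iigp1 at 6.17 ± 1.08 TPM. In all, 6 of the 9 rows held the same rank in both groups, and the 3 that moved were Gbp3, Irgm1 and the row labelled Gbp6.

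The 2 counting methods diverged in the rows labelled Gbp6 and Gbp10. HTSeq in its usual modes counts reads that can be given to 1 gene, while RSEM divides reads among all transcripts they fit. The median ratio of HTSeq to RSEM counts was 2.05 to 2.07 across the libraries, over genes with more than 50 expected counts. For 7 of the genes the mean ratio was 1.96 to 2.06. For Gbp6 it was 1.46 and 1.52 in Ctrl and 1.48 and 1.43 in dKO, and for Gbp10 1.51 and 1.56 in Ctrl and 1.36 and 1.57 in dKO. Relative to RSEM, HTSeq counted less of both rows than of the median gene, and the ratios of the groups overlapped. With the RSEM counts the log2 fold change was -1.40 for Gbp6, -1.59 for Gbp10 and -1.66 for Iigp1, and all 3 were called. When both rows were added up as a single gene, a step chosen after the overlap was seen, the sum was at 197 and 231.5 CPM in Ctrl against 71.3 and 79.5 CPM in dKO. The sum had a log2 fold change of -1.51 (SE 0.17, adjusted p from edgeR = 0.00999) from HTSeq counts and -1.43 (SE 0.17, adjusted p from edgeR = 0.00418) from RSEM counts. Counted this way, 2 of 8 rows fell: the sum and Iigp1. The neighbour Gbp9, which shares windows with the Gbp10 row, was at 133 ± 29.8 CPM in Ctrl against 112 ± 18.5 CPM in dKO (log2 fold change of -0.24 with SE 0.21, adjusted p from edgeR = 0.765).

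**Figure D3:**
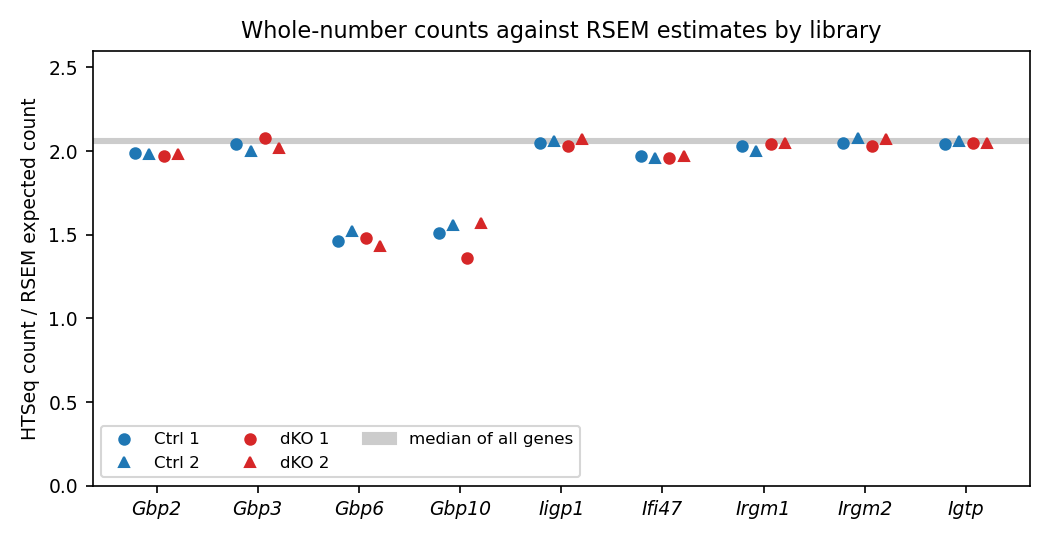
Ratio of the HTSeq count to the RSEM expected count (vertical axis) for each gene in each library; blue is Ctrl, red is dKO, and the grey band spans the medians of all genes in the 4 libraries (2.05 to 2.07). Gbp6 and Gbp10 lie between 1.36 and 1.57 in every library, and the other genes lie on or near the band.

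By position, the 3 rows that fell hold transcripts on chromosomes 5 and 18, and those labelled Gbp6 and Gbp10 overlap on chromosome 5. Gbp3 (chr3:142560026-142573209) and Gbp2 (chr3:142620602-142638008) lie in the chromosome 3 GBP cluster, on the chromosome that also carries Gabpb2 (chr3:95181766-95217916). Irgm1 (chr11:48861968-48871683) and Ifi47 (chr11:49076587-49096974) share an IRG cluster, and Igtp (chr11:58199556-58207591) and Irgm2 (chr11:58199618-58222782) a second one on the same chromosome. Iigp1 is at chr18:60376027-60392634. These are GRCm38 positions found by gene identifier, and not those of the mm9 build named for the files.

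Other genes of the 2 families and their relatives gave no call among 19 tested (edgeR), and 4 had an unadjusted p under 0.05, which 10.6% of all genes had. DESeq2 called 1, against 398 of 13634 over all genes, and limma-voom none. The median log2 fold change was -0.29, and 16 of the 19 values were negative. Gm12250, which corresponds to the IRG effector known as Irgb10 and is typed as a processed pseudogene in GENCODE M21, was at 170 ± 0.765 CPM in Ctrl against 94.5 ± 8.69 CPM in dKO (log2 fold change of -0.85 with SE 0.16, adjusted p from edgeR = 0.0737), and it is the gene that DESeq2 called (adjusted p = 0.000982). Gm4951, a weakly expressed neighbour of Iigp1, was at 4.38 ± 0.290 CPM in Ctrl against 1.16 ± 0.935 CPM in dKO (log2 fold change of -1.92 with SE 0.63, adjusted p from edgeR = 0.315). Several abundant relatives had values near 0, among them Gbp7 (-0.09, SE 0.15), Gbp8 (-0.06, SE 0.18) and Tgtp2 (-0.01, SE 0.16). Gbp8 lies in the chromosome 5 cluster with Gbp6. Of the windows of Tgtp2, 76.8% also occur in Tgtp1, so reads of these copies may not be separable.

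**Figure D4:**
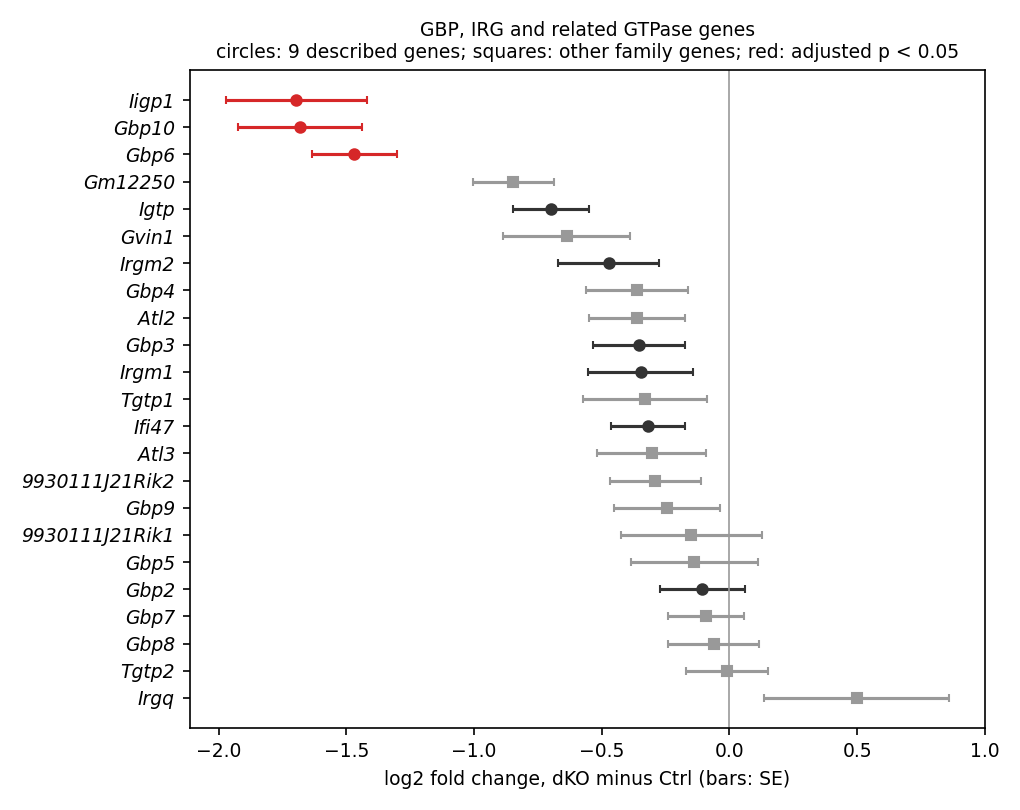
Log2 fold change (dKO minus Ctrl, horizontal axis) with its SE for 23 family rows with a mean of at least 10 CPM in a group; circles are the 9 genes described, squares are 14 other family genes, and red marks an adjusted p under 0.05. Iigp1, Gbp10 and Gbp6 lie left of -1.4, and Gm12250 is next at -0.85.

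In the pathway that switches these genes on, 2 of 19 interferon signalling genes fell and none rose (edgeR). They were Usp18, which restrains the type I receptor (log2 fold change of -1.54 with SE 0.18, adjusted p from edgeR = 0.0137), and Irf8, a transcription factor of the IRF family (-0.98, SE 0.15, adjusted p = 0.0337). Over all tested genes 0.611% were called. Of the 19, 7 had an unadjusted p under 0.05, which 10.6% of all tested genes had. The median of the list was -0.06, with 12 values negative and 7 positive. Socs3 was higher in dKO (log2 fold change of 0.91 with SE 0.24, adjusted p from edgeR = 0.209). DESeq2 called Socs3 higher (adjusted p = 0.0141), and the other genes of this list that DESeq2 called were lower. Irf1, a factor that acts at ISREs, was at 360 ± 27.5 CPM in Ctrl against 347 ± 1.59 CPM in dKO (adjusted p from edgeR = 0.945). Ifng itself was at 136 ± 49.7 CPM in Ctrl against 128 ± 20.2 CPM in dKO (adjusted p from edgeR = 0.955), with 5814 and 3333 counts in the Ctrl libraries. The count of 2 fell to 1 without dKO replicate 1.

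Of 23 other targets of interferon gamma, none was called in edgeR, DESeq2 or limma-voom. In edgeR 5 of the 23 had an unadjusted p under 0.05, which 10.6% of all tested genes had. The median log2 fold change of the list was -0.26. Bst2, which tethers budding virions, had -0.73 (SE 0.21, adjusted p from edgeR = 0.242), and the surface protein gene Ly6a had -2.02 at a low level (SE 0.64, adjusted p from edgeR = 0.296). Of 22 genes whose products act with the GTPases (autophagy conjugation, inflammasome and prenylation), edgeR and limma-voom called none and DESeq2 called 2. Over all genes DESeq2 called 398 of 13634. In edgeR 4 of the 22 had an unadjusted p under 0.05, against 10.6% of all tested genes. The median log2 fold change of these 22 was 0.08. The genes with the smallest p were Fntb, the beta subunit of the farnesyltransferase (log2 fold change of 1.05 with SE 0.21, adjusted p from edgeR = 0.100), and Map1lc3a, an autophagosome protein gene (0.95, SE 0.26, adjusted p from edgeR = 0.220). Both values were positive and are the ones that DESeq2 called.

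The 5 genes whose profile over the 4 libraries came nearest to the mean profile of the 9 were H2-T24, Abcb1a, Itga4, Plek and 2610029I01Rik, out of 8085 genes of at least 10 CPM. Likeness was the Euclidean distance between centred log2 CPM values, which ran from 0.0454 to 0.0991. None of the 5 passed the test, and their log2 fold changes ran from -0.82 to -0.70. With 4 libraries, many genes that differ between the groups have such a profile.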

How the data were processed

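The members and gene lists were chosen with earlier results of these data known. Per the submitters' processing notes, the tools listed, with no roles, were HTSeq 0.6.1, RSEM 1.3.0, TopHat2 2.1.1, Trimmomatic 0.36, FastQC 0.11.5 and DESeq2 1.32.0, and the build was mm9. For the annotation release, the strand setting and the treatment of reads that fit several genes, the sources used here give nothing. Gene counts, in whole numbers and the HTSeq layout, were deposited by the authors without normalization. Per the file headers, the authors also deposited RSEM expected counts, TPM and FPKM; FPKM was not used, and TPM served to order levels. Rows that name no gene were left out. Reads without a feature were 18.1% and 21.5% in Ctrl against 23.8% and 24.3% in dKO, and ambiguous reads were 2.20% to 2.34%. Genes with a count numbered 15921 and 18206 in Ctrl against 19450 and 19220 in dKO. The bearing of these library differences on the comparisons was not tested.

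Counts were tested with edgeR 4.0.16 in R 4.3.3 (quasi-likelihood F test, robust fit, TMM scaling, minimum count of 10, Benjamini-Hochberg over 13904 genes, threshold 0.05), after the procedure was tested on simulated data. An SE was obtained by dividing the size of a log2 fold change by the root of its F value. An exact permutation of 2 against 2 libraries cannot give a two-sided p below 0.333, and the model's p-values borrow their error estimate from all genes. Expected counts were rounded for testing. DESeq2 1.42.0 and limma 3.58.1 served as alternatives, with other scalings, filters, a replicate block and each library left out. The rule for named genes took all 9 members, the GABP and sex-linked checks, Irf1 and Ifng. It also took the 5 genes of most similar profile, and of each other list the called genes or the 2 with the smallest p. Gbp7, Gbp8, Gbp9, Tgtp2, Socs3, Elane and Mpo were named after their values were seen. Gbp5 and Tgtp1 were named for their promoter matches. A further gene that the rule names is not reported here. Transcript comparisons used GENCODE M21 sequences, whose versions differ from those of the files.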

Additional observations from a re-analysis of the deposited data

How the results depend on the processing

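Gbp6 was called in all 13 alternatives run for it, Gbp10 in 12 of 13 and Iigp1 in 10 of 14. Of 124 single-gene values under the alternatives, 123 were negative; the exception was Gbp2 without Ctrl replicate 2 (0.049; -0.249 to 0.049 with 1 library left out). Genes changed numbered 85 in the main test, 559 without a count filter, 147 with a minimum count of 50, 398 with DESeq2, and 73 to 187 with 1 library left out. Members called ranged from 1 to 3 with 1 library left out, and their median log2 fold change from -0.62 to -0.46; it was -0.41 with the Gbp6 and Gbp10 rows added up. Of the other family genes, 2 were called without a filter, 1 with a minimum count of 50 and 1 with DESeq2. Each of these family calls was lower in dKO. Of the signalling genes, 4 were called without a filter and 4 with DESeq2, and in both settings Socs3 was the only one that was higher. Without a filter 2 other targets, both lower, and 2 partner genes, both higher, were called, and with DESeq2 the same 2 partner genes. Over all genes, 559 of 23322 were called without a filter and 398 of 13634 with DESeq2. The cause of these changes was not tested.

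Replicate numbers were not used to pair the libraries in the main test. The correlation of same-numbered deviations was -0.054 over 13904 genes. It is a single value, and cannot show whether libraries of the same number were prepared together. The replicate block gave 100 changed genes, 3 members and 1 signalling gene. Protein identity was not run. With 2 libraries a group, a value that missed the threshold does not show that a gene stayed unchanged.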
